A study of Arabidopsis thaliana with 12 samples.

Results

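The genes described here were the heat shock proteins and heat shock factors of *Arabidopsis*, 32 of the 37336 genes listed in the count files. They were chosen by gene identifier as the disaggregase *HSP101*, the cytosolic HSP90 and HSC70/HSP70 genes, small heat shock protein genes, and HSFA and HSFB transcription factors. RNA was sequenced from root explants of a line with the transgene 35S:LFY-GR in the L.er (Landsberg erecta) background. It makes LFY, a regulator of floral fate, from the constitutive 35S promoter as a fusion to the part of the glucocorticoid receptor that binds the hormone. The steroid dexamethasone lets the fusion protein enter the nucleus, and mock solution does not. Roots of 3 week old seedlings were kept for 5 days on callus inducing medium, and dexamethasone or mock solution was applied for the last 1, 6, or 24 h. The 6 groups were therefore dexamethasone and mock at 1 h, dexamethasone and mock at 6 h, and dexamethasone and mock at 24 h, with 2 replicates (A and B) each and 12 libraries in all. Every group, mock included, carried the transgene and the callus treatment. The labels name no heat treatment, and no group without the transgene was among the samples used here. The times differ in when the treatment began, not in the age of the explants at harvest. Where a pair of values is given for a group, replicate A comes first.

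Heat shock proteins are chaperones that keep other proteins folded, and heat shock factors (HSFs) are the transcription factors that switch their genes on. In plants, constitutive HSP90 and HSC70 proteins assist folding in unstressed cells and hold HSFA1 factors inactive. When unfolded proteins accumulate, HSFA1 is released and turns on *HSP101*, inducible *HSP70* and *HSP90* genes, small heat shock proteins and further HSFs such as *HSFA2*, by binding heat shock elements made of repeated GAA units. The members were therefore divided by this textbook knowledge into 9 constitutive and 22 stress-induced genes. They were chosen with earlier results of these data known, so the division was not made blind to them. The constitutive genes were *HSP90.2* (AT5G56030), *HSP90.3* (AT5G56010), *HSP90.4* (AT5G56000), *HSC70-1* (AT5G02500), *HSC70-2* (AT5G02490), *HSC70-3* (AT3G09440), *HSFA1A* (AT4G17750), *HSFA1B* (AT5G16820) and *HSFA1D* (AT1G32330). The stress-induced chaperones were *HSP101* (AT1G74310), *HSP90.1* (AT5G52640), *HSP70-4* (AT3G12580) and *HSP70B* (AT1G16030), with the small HSPs *HSP17.4* (AT3G46230), *HSP17.6A* (AT5G12030), *HSP17.6II* (AT5G12020), *HSP17.6C* (AT1G53540), *HSP17.8* (AT1G07400), *HSP18.2* (AT5G59720), *HSP17.6B* (AT2G29500), *HSP23.6* (AT4G25200), *HSP22.0* (AT4G10250), *HSP21* (AT4G27670) and *HSP15.7* (AT5G37670). The stress-induced factors were *HSFA2* (AT2G26150), *HSFA3* (AT5G03720), *HSFA7A* (AT3G51910), *HSFA7B* (AT3G63350), *HSFB1* (AT4G36990), *HSFB2A* (AT5G62020) and *HSFB2B* (AT4G11660). *HSFA4A* (AT4G18880), a factor tied to oxidative stress, was left unclassed. By role there were 1 disaggregase, 4 HSP90, 5 HSC70/HSP70 and 11 small HSP genes, with 3 HSFA1, 5 other HSFA and 3 HSFB factors.

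To show what the members' promoters hold, the 250 bases before the annotated transcript start were read from RefSeq's TAIR10.1 genome of the Columbia accession, whose sequence may differ from that of L.er. The first 4 promoters below have heat shock elements before the start, and the last belongs to *HSP17.6II*, which had the highest log2 fold change of the 32 after 24 h of dexamethasone and no match. Capitals mark the core GAANNTTC, together with a further unit where GAA stands 2 bases after the core or TTC stands 2 bases before it (a three-unit element), and each line reads 5′ to 3′ towards the start. *HSP17.6C* lies at chr1:19980049-19980298 on the plus strand, *HSFA2* at chr2:11135374-11135623 on the plus strand, *HSFA7A* at chr3:19264891-19265140 on the plus strand, *HSP21* at chr4:13819972-13820221 on the minus strand and *HSP17.6II* at chr5:3883112-3883361 on the minus strand.
HSP17.6C: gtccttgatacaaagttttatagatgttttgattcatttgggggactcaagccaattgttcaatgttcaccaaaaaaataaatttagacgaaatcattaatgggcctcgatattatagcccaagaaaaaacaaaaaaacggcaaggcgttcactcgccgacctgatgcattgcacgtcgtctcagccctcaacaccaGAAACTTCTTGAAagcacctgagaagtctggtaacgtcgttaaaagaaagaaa
HSFA2: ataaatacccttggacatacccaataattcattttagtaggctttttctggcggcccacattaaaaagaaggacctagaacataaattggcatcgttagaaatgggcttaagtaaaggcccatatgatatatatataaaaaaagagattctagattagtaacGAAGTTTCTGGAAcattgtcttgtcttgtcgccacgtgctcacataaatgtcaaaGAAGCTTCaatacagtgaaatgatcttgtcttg
HSFA7A: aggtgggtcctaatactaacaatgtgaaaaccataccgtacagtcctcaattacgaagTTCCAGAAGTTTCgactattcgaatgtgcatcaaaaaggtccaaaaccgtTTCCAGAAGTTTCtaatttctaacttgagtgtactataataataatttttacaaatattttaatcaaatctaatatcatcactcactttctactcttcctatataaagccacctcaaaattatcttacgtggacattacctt
HSP21: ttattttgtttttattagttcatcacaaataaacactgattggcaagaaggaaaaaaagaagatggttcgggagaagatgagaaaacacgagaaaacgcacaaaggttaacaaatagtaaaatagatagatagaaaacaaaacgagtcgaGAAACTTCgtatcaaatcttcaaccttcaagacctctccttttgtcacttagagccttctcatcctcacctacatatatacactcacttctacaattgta
HSP17.6II: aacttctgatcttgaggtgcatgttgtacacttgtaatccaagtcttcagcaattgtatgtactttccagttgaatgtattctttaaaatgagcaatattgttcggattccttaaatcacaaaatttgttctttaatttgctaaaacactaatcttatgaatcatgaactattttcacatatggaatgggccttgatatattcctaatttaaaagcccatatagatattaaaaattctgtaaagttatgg

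Over 250 bases before to 50 after the start and on both strands, a three-unit element was found in 7 of the 32 members (21.9%) and in 132 of 27443 protein-coding genes (0.481%). The core, which lies inside every three-unit element, was found in 11 members (34.4%) and in 3177 of all protein-coding genes (11.6%). Stress-induced genes held the three-unit element in 6 of 22 cases, and constitutive genes in 1 of 9, *HSC70-3*, where it lies after the start. Before the start, the three-unit element was found in 5 members, *HSP17.4*, *HSP17.6C*, *HSFA2*, *HSFA7A* and *HSFA7B*. In *HSP17.6C* it begins at position -53 and in *HSFA2* at -88, while *HSFA7A* has copies at -192 and -142. In *HSP21* a core alone begins at -100. A match is a description of letters, and no match says only that these letters are not in this window.

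**Figure D1:**
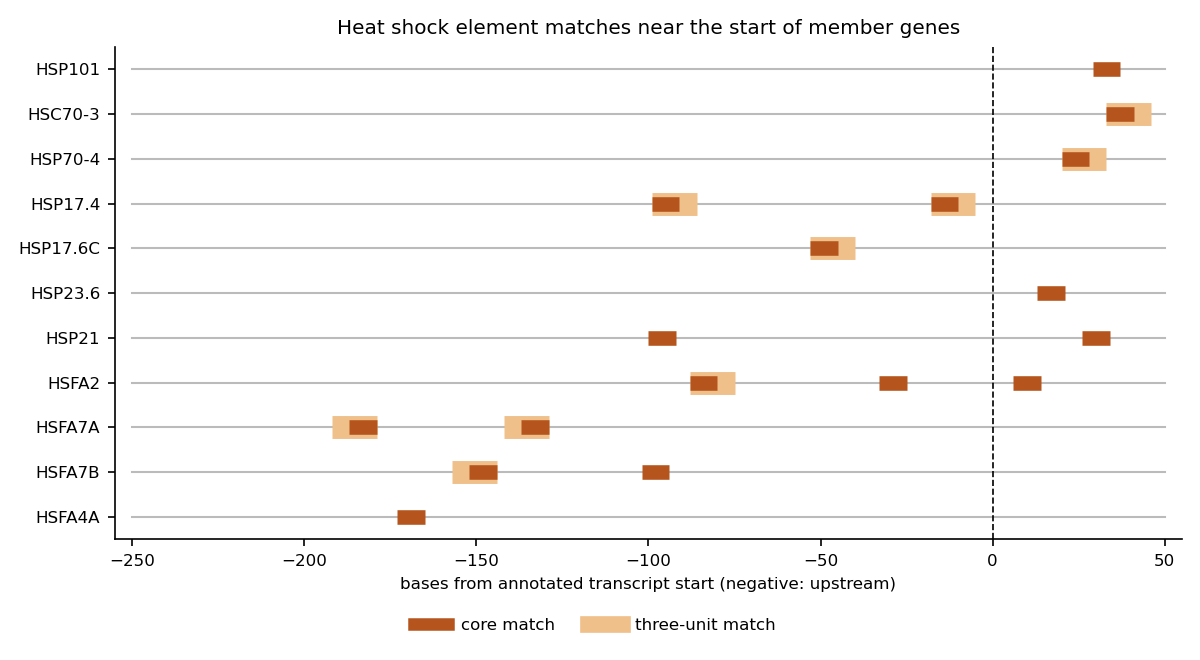
Matches to the heat shock element by position, in bases from the annotated transcript start (dashed line, negative is upstream), for the 11 members with a core match among 32. Dark bars are core matches and pale bars three-unit matches, and *HSC70-3* and *HSP70-4* have their three-unit match after the start.

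Between 18511462 and 66789371 reads were counted on genes per library, and the 24 h libraries were the shallowest, with at most 25879110. Depth and any run of the 24 h libraries cannot be told apart from the time of treatment. Reads not placed uniquely made up 6.90% to 22.2% of those tallied, and both extremes were 24 h libraries (dexamethasone replicate B and mock replicate A). Of the markers checked, all 6 callus genes had reads in every library, with a summed level of 537 to 799 CPM (counts per 1000000 reads on genes, after TMM normalization). Root genes summed to 188 to 262 CPM, but nearly all of it came from *SCR* and *SHR*, and the differentiated cell genes *CASP1* and *EXPA7* stayed at or below 0.252 CPM. Leaf mesophyll genes summed to 26.49 to 62.46 CPM, with *RBCS2B* at 0 in all but 1 library. All 32 members passed the filter on low counts in every comparison.

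Constitutive chaperones made up most of the transcripts of these genes. Divided by exon length and averaged over the 12 libraries, *HSC70-1*, the main cytosolic HSC70, was the most abundant member at 1729 CPM per kb. It was followed by *HSP90.2* at 262, *HSC70-3* at 178 and *HSP90.3* at 158 CPM per kb. *HSC70-1* was clear of the other 3 in every library, whereas the ranges over libraries of *HSP90.2* (206 to 328 CPM per kb), *HSC70-3* (118 to 231 CPM per kb) and *HSP90.3* (111 to 195 CPM per kb) overlapped from each gene to the next. The highest stress-induced genes were the repressor *HSFB1* at 104 and *HSP70-4* at 94.6 CPM per kb. The leading genes of the other roles were lower. *HSP17.6A* led the small HSPs at 28.7, *HSP101* stood at 21.0, *HSFA7A* led the other HSFA factors at 16.4 and *HSFA1D* the HSFA1 factors at 13.9 CPM per kb. *HSFA3* was the lowest at 0.319 CPM per kb. *HSP90.2*, *HSP90.3* and *HSP90.4* lie close together on chromosome 5 and share 28.8% to 36.0% of their 31-base stretches with other places in the genome. Reads with more than 1 possible position were left uncounted, so their levels are underestimated and uncertain. For the other 29 members at most 3.38% was shared. Strand was not used in counting, so reads of 6 members that overlap another gene (*HSP101*, *HSC70-3*, *HSP17.4*, *HSFA1B*, *HSFA3* and *HSFB2B*) cannot be told from those of that gene.

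The summed level of the stress-induced chaperones was lowest at 1 h and highest at 6 h in both treatments, and treated libraries were furthest above mock at 24 h. The 15 stress-induced chaperone genes summed to 386 and 472 CPM in dexamethasone, against 351 and 381 CPM in mock at 1 h. At 6 h the sums were 851 and 821 CPM, against 732 and 796 CPM in mock. At 24 h they were 488 and 661 CPM, against 400 and 389 CPM in mock. At each time both treated libraries were above both mock libraries in this sum. At 1 h *HSP70-4* made up the largest part of it, with means of 260 CPM in dexamethasone and 204 CPM in mock. Of the 15 genes, 10 had a positive and 5 a negative log2 fold change at 1 h, so the sum does not show a shift of the whole set. The 6 constitutive chaperones summed to 4616 to 7855 CPM in any library, and at 24 h to 7855 and 7796 CPM in dexamethasone, against 7288 and 6893 CPM in mock. Levels are shares of all reads, so fewer cells of a type and less RNA per cell cannot be told apart.

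**Figure D2:**
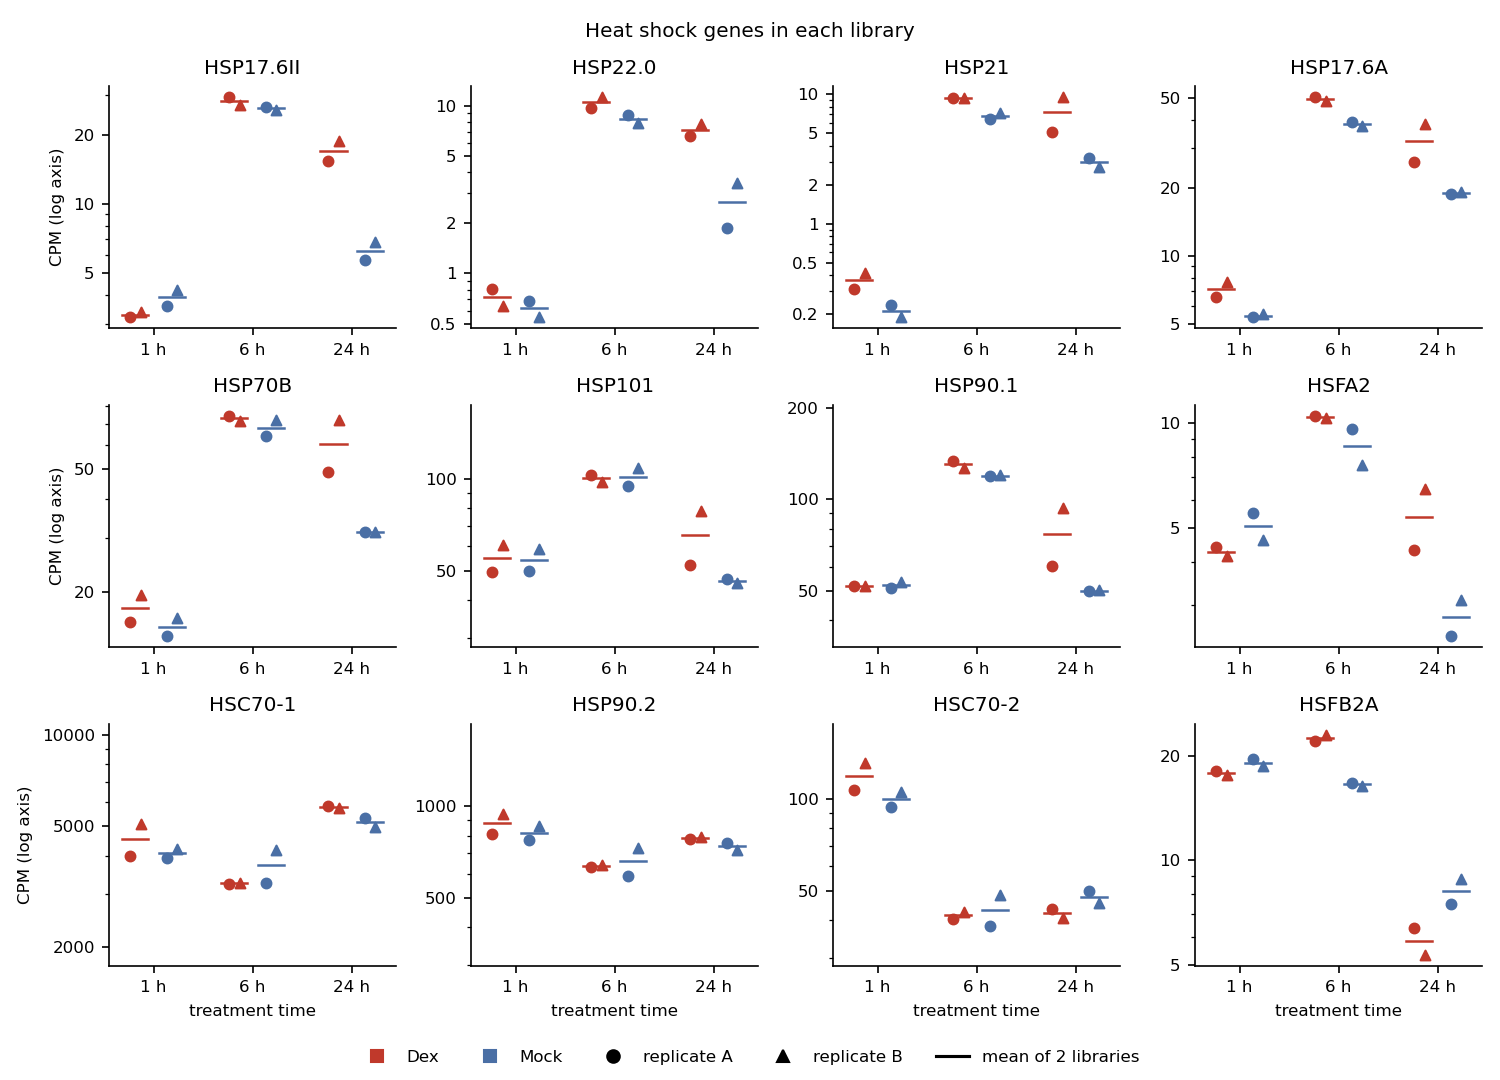
CPM on a log axis in each library for 12 members, with dexamethasone (red) left of mock (blue) at each time, circles for replicate A, triangles for replicate B and a line at the mean of 2 libraries. The small HSPs in the top row have their lowest mean at 1 h and their highest at 6 h in both treatments, and at 24 h the red symbols lie above the blue ones for all genes of the upper 2 rows.

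After 24 h of dexamethasone, 15 of the 32 members were higher than in mock at an adjusted *p* under 0.01. None were called lower at this threshold by edgeR or DESeq2, while 4 members that were lower had an unadjusted *p* under 0.05 by edgeR, beside 32.1% of all genes in either direction. Of all genes tested, 6.77% were called higher and 8.76% lower at an adjusted *p* under 0.01. At an adjusted *p* under 0.05, edgeR called the same 15 members higher and 3 lower (*HSFB1*, *HSFB2B* and *HSFA4A*). Beside them stood 4332 of the 19288 genes tested, in either direction. Both dexamethasone libraries lay above both mock libraries at 24 h for 19 of the 32 members and below them for 7. The same held for 5466 and 5649 of the 19288 genes tested, so groups without overlap were common. Stress-induced genes accounted for 14 of the 15 (14 of 22), with a median log2 fold change of 0.75 beside 0.0051 over all genes. Of the 9 constitutive genes only *HSC70-1* passed, and their median was -0.030.

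**Figure D3:**
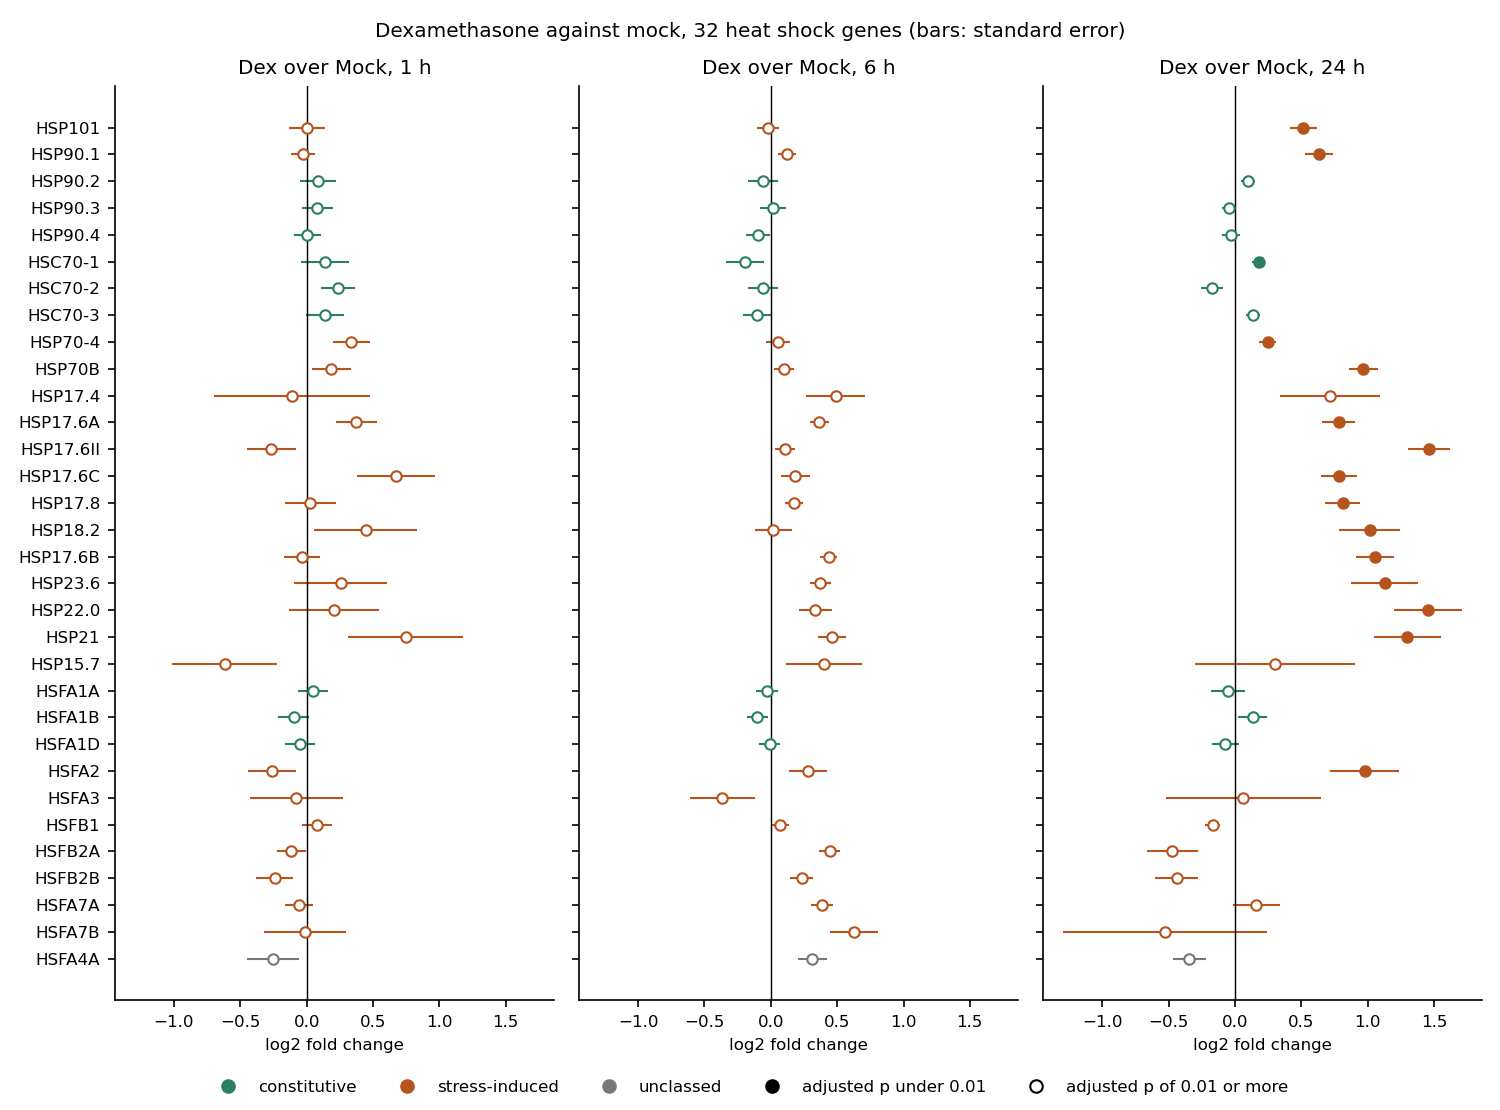
Log2 fold change of dexamethasone over mock at 1, 6, and 24 h for the 32 members, with bars of 1 standard error, and filled points for an adjusted *p* under 0.01. Filled points appear at 24 h alone, 14 of them stress-induced genes and 1 the constitutive *HSC70-1*.

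*HSP101*, which pulls proteins out of aggregates, was at 52.2 and 78.6 CPM in dexamethasone, against 46.9 and 45.4 CPM in mock at 24 h. *HSP90.1*, the heat-inducible HSP90, was at 60.5 and 93.8 CPM in dexamethasone, against 49.9 and 50.3 CPM in mock. In both genes mock was tight, the dexamethasone libraries lay above it, and replicate B was far above replicate A. The log2 fold change was 0.52 ± 0.10 (SE) for *HSP101* (edgeR adjusted *p* = 0.000243) and 0.64 ± 0.11 for *HSP90.1* (edgeR adjusted *p* = 1.26e-05). The abundant *HSP90.2* was at 781 and 793 CPM in dexamethasone, against 756 and 719.8 CPM in mock. Its libraries did not overlap but the difference of 0.10 ± 0.051 did not pass (edgeR adjusted *p* = 0.179). *HSP90.3* and *HSP90.4* had log2 fold changes of -0.046 ± 0.051 and -0.03 ± 0.068.

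Among the HSP70 chaperones, *HSP70B*, a strongly heat-induced gene, was at 49.1 and 72.1 CPM in dexamethasone, against 31.2 and 31.2 CPM in mock. Both dexamethasone libraries were above both mock libraries, with a log2 fold change of 0.97 ± 0.11 (edgeR adjusted *p* = 6.07e-09). *HSP70-4*, another stress-induced gene, was at 207 and 248 CPM in dexamethasone, against 200 and 186 CPM in mock, groups that lie close but do not overlap. It rose by 0.25 ± 0.064 on the log2 scale (edgeR adjusted *p* = 0.004). *HSC70-1* was at 5841 and 5748 CPM in dexamethasone, against 5307 and 4981 CPM in mock, with both treated libraries above both mock ones. It rose by 0.18 ± 0.051 (edgeR adjusted *p* = 0.00837), a 1.13-fold difference against 1.96-fold for *HSP70B*. *HSC70-2*, the gene next to *HSC70-1*, and *HSC70-3* were at -0.17 ± 0.085 and 0.13 ± 0.051 and did not pass (edgeR adjusted *p* = 0.157 and 0.0556).

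Small HSPs bind unfolding proteins and keep them soluble, and 9 of the 11 were higher at 24 h of dexamethasone (median log2 fold change 1.01). The 3 highest log2 fold changes of all members were among them. *HSP17.6II*, a cytosolic class II gene that lies beside *HSP17.6A* on chromosome 5, was at 15.3 and 18.9 CPM in dexamethasone, against 5.68 and 6.85 CPM in mock. It rose by 1.46 ± 0.16 (edgeR adjusted *p* = 2.71e-09), or 2.76-fold, with no overlap between groups. *HSP22.0*, whose product enters the endomembrane system, was at 6.58 and 7.82 CPM in dexamethasone, against 1.87 and 3.47 CPM in mock. The mock libraries differed more from each other than the treated ones, and the gene rose by 1.46 ± 0.25 (edgeR adjusted *p* = 2.95e-05). *HSP21*, a chloroplast protein, was at 5.06 and 9.49 CPM in dexamethasone, against 3.23 and 2.74 CPM in mock. The increase was 1.30 ± 0.25 (edgeR adjusted *p* = 0.000146), and replicate B again stood well above replicate A. *HSP23.6*, a mitochondrial protein, was at 5.90 and 12.4 CPM in dexamethasone, against 3.27 and 5.30 CPM in mock. Its mock replicate B came near to treated replicate A, and the log2 fold change was 1.13 ± 0.25 (edgeR adjusted *p* = 0.000725).

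The cytosolic small HSPs moved in the same direction. *HSP17.6A* (class II) was at 26.0 and 38.6 CPM in dexamethasone, against 18.9 and 19.1 CPM in mock, and rose by 0.78 ± 0.12 (edgeR adjusted *p* = 6.61e-06). *HSP17.6B* (class I, as the 4 that follow) was at 17.59 and 23.8 CPM in dexamethasone, against 11.1 and 8.90 CPM in mock, and rose by 1.06 ± 0.14 (edgeR adjusted *p* = 4.14e-07). In both, the treated libraries were clear of mock. *HSP18.2* was at 5.84 and 7.52 CPM in dexamethasone, against 3.46 and 3.20 CPM in mock, with a log2 fold change of 1.01 ± 0.23 (edgeR adjusted *p* = 0.000949). *HSP17.8* was at 17.3 and 21.0 CPM in dexamethasone, against 10.6 and 11.5 CPM in mock, with 0.81 ± 0.13 (edgeR adjusted *p* = 1.23e-05). *HSP17.6C* was at 17.5 and 24.1 CPM in dexamethasone, against 11.6 and 12.7 CPM in mock, with 0.78 ± 0.14 (edgeR adjusted *p* = 3e-05). None of these 3 overlapped between groups. *HSP17.4*, at 0.71 ± 0.38, and the peroxisomal *HSP15.7*, at 0.30 ± 0.60, did not pass (edgeR adjusted *p* = 0.191 and 0.79). Of the 11 genes, 9 have a single annotated exon, while *HSP21* and *HSP23.6* have an intron.

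Of the 11 heat shock factors, 1 was called at 24 h of dexamethasone. *HSFA2*, an activator that prolongs the heat response, was at 4.33 and 6.45 CPM in dexamethasone, against 2.45 and 3.10 CPM in mock at 24 h. Both treated libraries were above both mock libraries, with a log2 fold change of 0.98 ± 0.26 (edgeR adjusted *p* = 0.00517). The HSFA1 factors that start the response were at -0.051 ± 0.13 (*HSFA1A*), 0.13 ± 0.11 (*HSFA1B*) and -0.071 ± 0.10 (*HSFA1D*). *HSFA1D*, the most abundant of them, was at 27.9 and 31.8 CPM in dexamethasone, against 29.7 and 33.5 CPM in mock, and its groups overlapped (edgeR adjusted *p* = 0.685). *HSFA7A* was at 7.67 and 11.6 CPM in dexamethasone, against 8.28 and 9.18 CPM in mock, also overlapping, with 0.16 ± 0.18 (edgeR adjusted *p* = 0.597). The HSFB repressors had negative values. *HSFB1* was at 141 and 149 CPM in dexamethasone, against 167 and 160 CPM in mock, with -0.17 ± 0.058 (edgeR adjusted *p* = 0.0336). *HSFB2A* and *HSFB2B* were at -0.47 ± 0.19 and -0.44 ± 0.16, and *HSFA4A* at -0.34 ± 0.12 (edgeR adjusted *p* = 0.0774, 0.0423 and 0.0393). Both treated libraries were below both mock libraries for each of these 4, as for 5649 of the 19288 genes tested, and none passed the threshold. *HSFA7B*, with 1 read in a treated library, and *HSFA3*, at 0.626 and 0.727 CPM in dexamethasone, against 0.622 and 0.685 CPM in mock, had log2 fold changes of -0.53 ± 0.77 and 0.064 ± 0.58, and neither passed.

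The 24 h calls rested in part on dexamethasone replicate B. All 15 stress-induced chaperones were higher in it than in dexamethasone replicate A, by a median of 1.42 times, while for mock at 24 h the median ratio of B to A was 1.01. Without this library 8 members were called, beside 12.4% of all genes, 7 higher and 1 (*HSFB2B*) lower, and *HSP101*, *HSP90.1*, *HSC70-1*, *HSP70-4*, *HSP18.2*, *HSP21*, *HSP23.6* and *HSFA2* lost the call. *HSC70-1* also lost it without dexamethasone replicate A or mock replicate B, under RLE normalization, with at least 10 counts in each library and in the fit of all 12 libraries (edgeR adjusted *p* of 0.0147 to 0.5 over its 6 losses), *HSP70-4* without mock replicate B and *HSFA2* without mock replicate A. The call of *HSP70B*, *HSP17.6A*, *HSP17.6II*, *HSP17.8*, *HSP17.6B* and *HSP22.0* was kept in all 12 alternatives tried. DESeq2 called 9 members (8.16% of all genes) and the fit of all 12 libraries 8 (7.28% of all genes), and all of these were among the 15. Both lost *HSP101*, *HSP90.1*, *HSP70-4*, *HSP23.6* and *HSFA2* (DESeq2 adjusted *p* of 0.303, 0.196, 0.0215, 0.29 and 0.0501). In the fit of all 12 their edgeR adjusted *p* was 0.0785, 0.0186, 0.27, 0.0569 and 0.0155. DESeq2 also lost *HSP18.2* (DESeq2 adjusted *p* = 0.0122), and the fit of all 12 *HSC70-1* and *HSP17.6C* (edgeR adjusted *p* = 0.5 and 0.049). The summed level of the 6 callus markers was 537 and 551 CPM in dexamethasone, against 784 and 799 CPM in mock at 24 h, with *LBD16*, *LBD17*, *LBD18*, *LBD29* and *WOX5* lower and *PLT1* higher in both treated libraries. Root markers (190 to 218 CPM in dexamethasone, against 194 to 215 CPM in mock) overlapped between groups in sum, while *MYB36* of that list was at 6.99 and 7.61 CPM in dexamethasone, against 4.43 and 2.83 CPM in mock. Leaf markers summed to 49.96 and 50.26 CPM in dexamethasone, against 40.7 and 49.0 CPM in mock, with *RBCS1A* and *RCA* higher and *CAB1* and *CAB3* lower in both treated libraries. The part of these shifts in the results was not tested.

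At 6 h none of the 32 members passed the threshold, as was the case for nearly all genes (0.0048% called). At an unadjusted *p* under 0.05 there were 11 of the 32 members, beside 11.9% of all genes, and DESeq2 called 1, *HSP17.6B*, beside 0.711% of all genes. All 11 small HSPs had a positive log2 fold change, with a median of 0.37. Both treated libraries were above both mock libraries for 10 of the 11, and for 17 of 22 stress-induced and 0 of 9 constitutive members, beside 25.9% of all genes tested. They were below for 2 of the 32, beside 22.1% of all genes. *HSP17.6B* was at 50.4 and 50.8 CPM in dexamethasone, against 37.5 and 37.2 CPM in mock at 6 h, and *HSP17.6A* at 50.6 and 48.6 CPM in dexamethasone, against 39.2 and 37.5 CPM in mock. *HSP21* was at 9.30 and 9.28 CPM in dexamethasone, against 6.38 and 7.09 CPM in mock, and *HSP23.6* at 22.4 and 22.6 CPM in dexamethasone, against 16.8 and 17.9 CPM in mock. In these 4 the replicates lay close together. The log2 fold changes were 0.44 ± 0.061, 0.37 ± 0.068, 0.46 ± 0.10 and 0.37 ± 0.077 in the order named (edgeR adjusted *p* of 0.145 to 0.245). Close dexamethasone libraries were not particular to these genes. The 6 constitutive chaperones summed to 4680 and 4724 CPM in dexamethasone, against 4616 and 5835 CPM in mock at 6 h. Of the factors, *HSFB2A* was at 22.1 and 23.0 CPM in dexamethasone, against 16.7 and 16.4 CPM in mock (0.44 ± 0.078), and *HSFA7A* at 28.1 and 25.8 CPM in dexamethasone, against 21.1 and 20.2 CPM in mock (0.38 ± 0.083). *HSP101* was at 103 and 97.6 CPM in dexamethasone, against 95.1 and 108 CPM in mock, overlapping, and *HSP90.1* at 134 and 127 CPM in dexamethasone, against 119 and 120 CPM in mock. *HSC70-1* was at 3232 and 3262 CPM in dexamethasone, against 3257 and 4174 CPM in mock, where mock replicate B stood apart from replicate A. The count of calls depended on the mock libraries. Without mock replicate A at 6 h, 20 members (14 higher, 6 lower) were called, beside 38.9% of all genes, and without replicate B 13, all higher, beside 13.9% of all genes. *HSP90.2* and *HSP90.3* were called lower in the first of these fits and higher in the second. Callus markers summed to 600 and 602.3 CPM in dexamethasone, against 542 and 585 CPM in mock at 6 h, with *LBD17*, *LBD29* and *WOX5* higher and *PLT1* lower in both treated libraries. Leaf markers summed to 44.0 and 42.4 CPM in dexamethasone, against 47.6 and 62.46 CPM in mock, and of the root list *MYB36* was at 12.7 and 13.6 CPM in dexamethasone, against 10.8 and 9.99 CPM in mock. The part of these markers in the results was not tested. In such a fit the lone library is assumed to vary like the others.

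At 1 h no member was called by edgeR, as for all genes tested (0% called), nor by DESeq2, and none had an unadjusted *p* under 0.05, beside 4.31% of all genes. The median log2 fold change was -0.0048 over stress-induced and 0.081 over constitutive members. Both treated libraries were above both mock libraries for 6 of the 32 members and below them for 5, beside 17.2% and 14% of all genes tested. *HSP17.6A* was at 6.58 and 7.71 CPM in dexamethasone, against 5.36 and 5.52 CPM in mock, and *HSP70-4* at 229 and 291 CPM in dexamethasone, against 196 and 212 CPM in mock. Neither overlapped, with 0.37 ± 0.16 and 0.33 ± 0.14 on the log2 scale. *HSP101* and *HSP90.1* were at 0.0027 ± 0.14 and -0.027 ± 0.09, and *HSFA2* at 4.41 and 4.15 CPM in dexamethasone, against 5.51 and 4.63 CPM in mock. Without dexamethasone replicate A of 1 h, 3 of the 32 members were called, 2 higher and 1 lower, beside 9.76% of all genes.

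Among the comparisons made here, the small HSPs differed most between mock libraries of 6 h and 1 h. Mock at 6 h had 15 members higher and 3 lower than mock at 1 h, beside 5.34% and 9.26% of all genes. All 11 small HSPs were higher, with a median log2 fold change of 2.82. *HSP21* was at 6.38 and 7.09 CPM at 6 h, against 0.237 and 0.190 CPM at 1 h, which is 31.3-fold (4.97 ± 0.34, edgeR adjusted *p* = 3.58e-06). *HSP17.6II* was at 26.54 and 25.7 CPM, against 3.59 and 4.23 CPM (2.74 ± 0.14, edgeR adjusted *p* = 4.8e-07). *HSP22.0* was at 8.76 and 7.86 CPM, against 0.689 and 0.547 CPM (3.75 ± 0.27, edgeR adjusted *p* = 5.84e-06). The replicates of each time were far closer to each other than to the other time. *HSP70B*, *HSP90.1* and *HSP101* were higher by 2.14 ± 0.16, 1.19 ± 0.15 and 0.91 ± 0.17, and *HSP70-4* had 0.40 ± 0.13, which did not pass (edgeR adjusted *p* = 0.0401). The last gene called higher was the constitutive *HSFA1B*, by 0.38 ± 0.085. Constitutive chaperones were the 3 called lower. *HSC70-2* was at 38.2 and 48.2 CPM at 6 h, against 93.7 and 106 CPM at 1 h (-1.20 ± 0.13, edgeR adjusted *p* = 6.53e-05). *HSP90.3* and *HSC70-3* were at -0.52 ± 0.093 and -0.53 ± 0.12. Of the 7 stress-induced HSFs none was called by edgeR, and 1 had an unadjusted *p* under 0.05, beside 36.8% of all genes. It was *HSFA2*, with 9.62 and 7.56 CPM at 6 h, against 5.51 and 4.63 CPM at 1 h (0.76 ± 0.19, edgeR adjusted *p* = 0.0142). When 1 mock library was left out, the call of *HSFA1B* was lost in all 4 cases, that of *HSC70-3*, *HSP17.4* and *HSP15.7* without either 1 h library or 6 h replicate A, that of *HSP90.3* without 1 h replicate B or 6 h replicate A, and that of *HSP101* without 1 h replicate A or 6 h replicate B. The summed callus markers were 542 to 585 CPM in mock at 6 h, against 610.5 to 620.4 CPM in mock at 1 h, and leaf markers 47.6 to 62.46 CPM, against 26.49 to 28.3 CPM. Their part in the result was not tested.

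**Figure D4:**
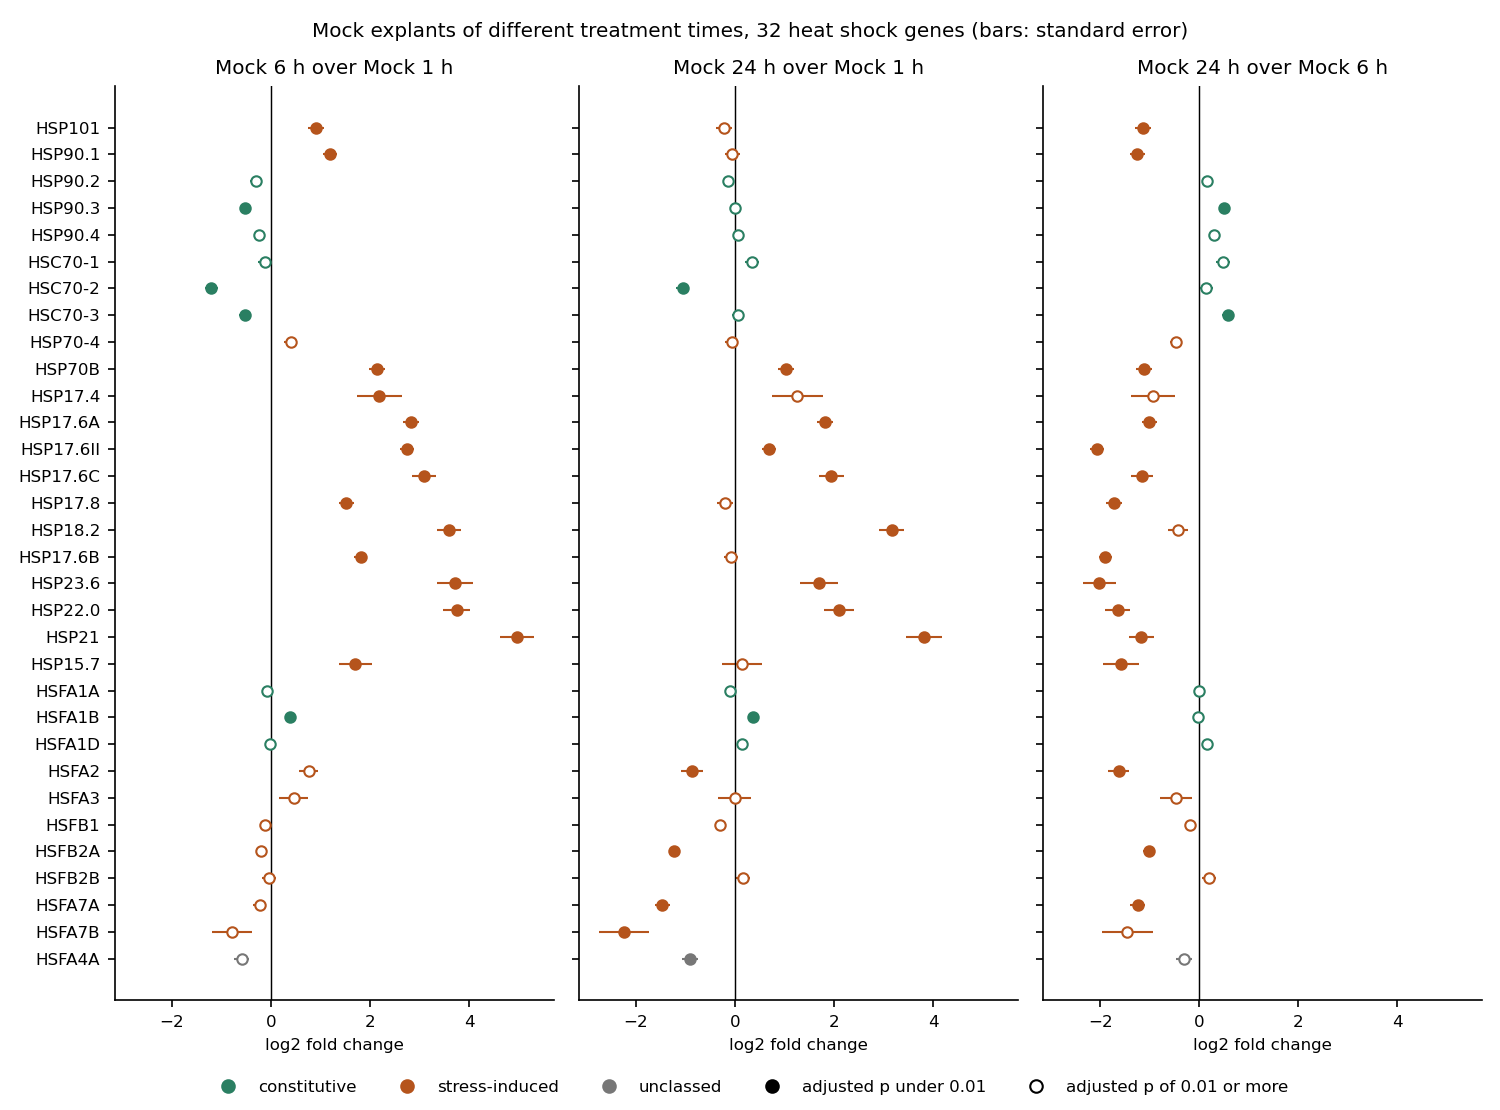
Log2 fold change between mock libraries of 6 h over 1 h, 24 h over 1 h and 24 h over 6 h for the 32 members, with bars of 1 standard error, and filled points for an adjusted *p* under 0.01. All 11 small HSPs lie right of 0 at 6 h over 1 h, and the constitutive chaperones lie left of it. The comparisons share their mock libraries.

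Mock at 24 h had 2 members higher and 15 lower than mock at 6 h, beside 6.79% and 8.49% of all genes. *HSP17.6II* was at 5.68 and 6.85 CPM at 24 h, against 26.54 and 25.7 CPM at 6 h (-2.06 ± 0.14, edgeR adjusted *p* = 4.61e-06). *HSP90.1* was at 49.9 and 50.3 CPM, against 119 and 120 CPM at 6 h (-1.25 ± 0.15, edgeR adjusted *p* = 0.000179). The lower genes comprised 12 stress-induced chaperones, *HSFA2* (-1.63 ± 0.21), *HSFB2A* (-1.02 ± 0.11) and *HSFA7A* (-1.24 ± 0.15). *HSP90.3* and *HSC70-3* were higher, by 0.51 ± 0.093 and 0.58 ± 0.12. Over 12 alternatives the median log2 fold change of the stress-induced genes stayed between -1.24 and -1.15. *HSP90.3*, *HSC70-3*, *HSP101*, *HSP17.6C*, *HSP15.7* and *HSP21* lost the call without either 24 h library, *HSP17.6A*, *HSP70B* and *HSP23.6* without 24 h replicate A. Leaving out 6 h replicate A ended it for *HSP90.3*, *HSC70-3*, *HSP15.7* and *HSP21*, and leaving out 6 h replicate B for *HSP17.6C* and *HSP21*. The summed callus markers were 784 to 799 CPM in mock at 24 h, against 542 to 585 CPM in mock at 6 h, and their part was not tested. Since this comparison uses the same 6 h mock libraries as the one before, opposite signs in the pair are not independent.

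Against mock at 1 h, mock at 24 h had 9 members higher and 6 lower, beside 10.2% and 14.3% of all genes. *HSP21* was at 3.23 and 2.74 CPM at 24 h, against 0.237 and 0.190 CPM at 1 h (3.81 ± 0.36, edgeR adjusted *p* = 1.49e-05). *HSP18.2* was at 3.46 and 3.20 CPM, against 0.452 and 0.295 CPM (3.16 ± 0.25, edgeR adjusted *p* = 4.03e-06). Small HSPs were 7 of the 9 higher genes, with *HSP70B* and *HSFA1B*. *HSP101* and *HSP90.1* were at -0.22 ± 0.17 and -0.055 ± 0.15 and did not pass. The lower genes were mostly factors. *HSFA7A* was at 8.28 and 9.18 CPM, against 24.8 and 23.7 CPM (-1.47 ± 0.15, edgeR adjusted *p* = 2.86e-05), and *HSFB2A*, *HSFA7B*, *HSFA4A* and *HSFA2* were also lower (-1.23 ± 0.11, -2.24 ± 0.50, -0.90 ± 0.16 and -0.86 ± 0.22). The remaining gene was *HSC70-2* (-1.05 ± 0.13). Over 12 alternatives the median log2 fold change of the stress-induced genes lay between -0.069 and 0.12. The call of *HSFA1B*, *HSFA2* and *HSFA7B* was lost whichever of the 4 libraries was left out. *HSFA4A* lost it without 1 h replicate A or either 24 h library, *HSP23.6* without either 1 h library or 24 h replicate B, *HSP17.6II* without 1 h replicate A or 24 h replicate B, and *HSP70B* without 1 h replicate A. Callus markers summed to 784 to 799 CPM in mock at 24 h, against 610.5 to 620.4 CPM in mock at 1 h, and leaf markers to 40.7 to 49.0 CPM, against 26.49 to 28.3 CPM, and their part was not tested.

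**Figure D5:**
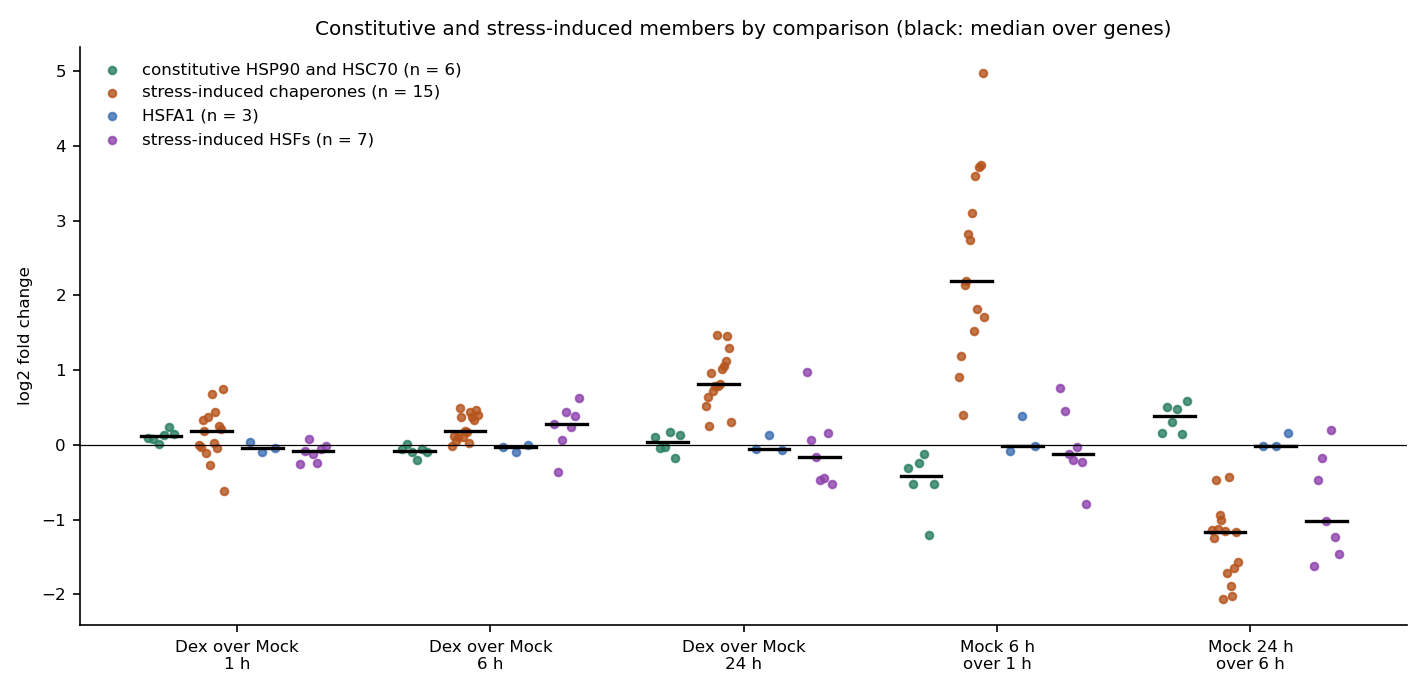
Log2 fold change of each member in 5 comparisons, grouped as 6 constitutive chaperones, 15 stress-induced chaperones, 3 HSFA1 genes and 7 stress-induced HSFs, with a black line at each median over genes. Stress-induced chaperones have medians of 0.81 for dexamethasone over mock at 24 h and 2.19 for mock at 6 h over 1 h, and constitutive chaperones 0.035 and -0.41.

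Whether the response to dexamethasone differed between times was tested by an interaction over all 12 libraries. Between 24 h and 6 h, 2 members differed, beside 1.43% of all genes with a higher and 3% with a lower response at 24 h. For *HSP17.6II* the response at 24 h exceeded that at 6 h by 1.35 ± 0.19 (edgeR adjusted *p* = 0.00114). At 6 h it was at 29.3 and 27.1 CPM in dexamethasone, against 26.54 and 25.7 CPM in mock, groups close to each other, and the 24 h libraries were given above. *HSFB2A* went the other way, by -0.92 ± 0.16 (edgeR adjusted *p* = 0.00446). It was at 6.37 and 5.34 CPM in dexamethasone, against 7.47 and 8.81 CPM in mock at 24 h, with the treated libraries below mock, while at 6 h they were above it. For *HSP70B* and *HSP18.2* the difference was 0.86 ± 0.22 and 0.99 ± 0.28, short of the threshold by edgeR (edgeR adjusted *p* = 0.0356 and 0.049). *HSP70B* passed it by DESeq2, with no filter on low counts and without dexamethasone replicate A of 24 h. The call for *HSFB2A* was lost without any 1 of the 4 libraries of 6 h or without replicate B of dexamethasone or mock at 24 h, and with counts thinned to the smallest library, while that for *HSP17.6II* was not lost in any of 15 alternatives. DESeq2 called 3 members, beside 5.75% of all genes. Without dexamethasone replicate A of 24 h, 4 members were called, beside 2.61% of all genes. Between 6 h and 1 h no member differed by edgeR (0.0612% of all genes called) or DESeq2, and 4 of the 32 had an unadjusted *p* under 0.05, beside 8.67% of all genes.

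Other HSF, small HSP, chaperone and co-chaperone genes, with heat-response targets, were taken from 4 lists of textbook genes. Not all of them need respond to heat, and the lists were also chosen with earlier results of these data known. Their counts at 24 h of dexamethasone stand beside 6.77% of all genes called higher and 8.76% lower. Of 15 co-chaperones and heat-response targets, 7 were called after 24 h of dexamethasone, and each was higher. *DREB2A*, an activator of *HSFA3* under drought and heat, was at 20.0 and 24.2 CPM in dexamethasone, against 11.9 and 11.1 CPM in mock (0.95 ± 0.13, edgeR adjusted *p* = 3.02e-07). *ROF2*, an FKBP co-chaperone of HSP90, was at 11.9 and 16.8 CPM, against 9.57 and 9.32 CPM (0.62 ± 0.16, edgeR adjusted *p* = 0.00263). The others were *BAG6*, *HOP3*, *FES1A*, *ROF1* and *APX2*, of which *APX2* had under 4 reads in each mock library. Of 12 organelle and ER chaperones, 6 were higher and 2 (the ER chaperones *BIP1* and *BIP2*) lower. The mitochondrial *MTHSC70-2* was at 217 and 233 CPM, against 156 and 153 CPM in mock (0.55 ± 0.057, edgeR adjusted *p* = 1.15e-09). Among other HSFs, *HSFB4* alone of 7 tested was higher (0.62 ± 0.11, edgeR adjusted *p* = 2.08e-05), and among 6 other small HSPs *HSP26.5* (1.08 ± 0.23, edgeR adjusted *p* = 0.000396). At 1 h and 6 h edgeR called no gene of the 4 lists, and 2 and 6 of them had an unadjusted *p* under 0.05, beside 4.31% and 11.9% of all genes. Tested were 7 other HSFs, 12 organelle and ER chaperones, 6 other small HSPs, and 14 (1 h) or 15 (6 h) co-chaperones and targets. In mock at 6 h against mock at 1 h (5.34% of all genes higher and 9.26% lower), 7 of the 15 co-chaperones and targets were called, each of them higher. Of the 12 organelle and ER chaperones 2 were higher and 3 lower, of the 6 other small HSPs 2 were higher and 1 lower, and of the 7 other HSFs 2 were lower. *GOLS1*, which makes galactinol, was at 20.8 and 24.2 CPM, against 4.498 and 4.63 CPM (2.31 ± 0.14, edgeR adjusted *p* = 1.9e-06). In mock at 24 h against mock at 6 h (6.79% of all genes higher and 8.49% lower), 10 of the 15 co-chaperones and targets were called, each of them lower, among them *DREB2A* (-1.80 ± 0.12, edgeR adjusted *p* = 4.04e-06). Here 1 organelle or ER chaperone was higher, and 3 other small HSPs and 2 other HSFs were lower. In mock at 24 h against mock at 1 h (10.2% of all genes higher and 14.3% lower), 1 of the 15 co-chaperones and targets was higher and 5 lower, 2 organelle and ER chaperones were higher and 1 lower, 1 other small HSP was higher and 2 lower, and 4 other HSFs were lower.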

How the data were processed

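RNA-seq counts of 12 libraries were grouped by treatment and time from their labels. Tools in the submitters' processing notes are Trimmomatic 0.36, FastQC 0.11.5, STAR 2.5.3a and HTSeq 0.7.2, with genome TAIR10, and the methods of the study name Araport11. The authors deposited whole-number counts of uniquely placed reads per gene, without strand, pooling or normalization. Reads that HTSeq tallied to no gene (10.4% to 27.1% of reads) were left out. Positions, exon lengths, promoters and motif matches came from RefSeq's TAIR10.1, since the files hold no coordinates. CPM per kb were CPM divided by the union of annotated exons.

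Low counts were removed by filterByExpr, libraries were TMM normalized, and groups were compared by the quasi-likelihood test of edgeR 4.0.16 in R 4.3.3 (with limma 3.58.1), with Benjamini-Hochberg adjustment over all genes tested and a threshold of 0.01. Dexamethasone was compared with mock over the 4 libraries of a time, and mock times and interactions over all 12. Alternatives were DESeq2 1.42.0, RLE normalization, no filter, at least 10 counts in each library, an adjusted *p* under 0.05, counts thinned to the smallest library, the replicate letter as a block, the other choice of libraries in the fit, and leaving out each library. The procedure was tested on simulated data, whose outcome is not given here and is not used as support for the calls. Python 3.11.15 with pandas 2.3.3 was used for sequences and figures.

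With 2 replicates a group, *p*-values rest on the spread between these libraries, estimated with the help of all genes. The standard errors were derived from the log2 fold change and the test statistic. They can therefore be narrower than the spread of a gene's own 2 libraries in a group. For *HSP101* at 24 h of dexamethasone, edgeR gave an adjusted *p* of 0.000243 and DESeq2 an adjusted *p* of 0.303. Depth was 18511462 to 66789371 reads on genes. Full values are given for members past the threshold for dexamethasone against mock, for the most abundant member of each role, and for *HSP90.1*, *HSP70-4* and *HSFA2*. Some other members are named after their values were seen. The members and lists were chosen with earlier results of these data known, so no list was tested.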

Additional observations from a re-analysis of the deposited data

Results flagged for a closer look

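The response to dexamethasone differed between 24 h and 6 h, by a test of the difference itself, for 3 of the genes followed here. Over all genes, 1.43% had a higher and 3% a lower response at 24 h, so such calls were not particular to these genes. For *HSP17.6II* the log2 fold change over mock was higher at 24 h by 1.35. For *HSFB2A* it was lower at 24 h, with a difference of -0.92, and the call was lost in 7 of 15 alternatives. The mitochondrial chaperone *MTHSC70-2*, which is not one of the 32 members, had a response higher by 0.8 at 24 h, with 153 and 148 CPM in dexamethasone at 6 h, against 172 and 186 CPM in mock.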

How the results depend on the processing

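With 2 libraries a group, single libraries decided many calls. Leaving out each library gave 0 to 3 members called for dexamethasone against mock at 1 h, 0 to 20 at 6 h and 8 to 14 at 24 h, 13 to 16 for mock at 6 h against 1 h, 8 to 11 at 24 h against 1 h and 8 to 16 at 24 h against 6 h, and 0 in every fit for the change in response at 6 h against 1 h and 1 to 4 at 24 h against 6 h. Such fits have fewer libraries to estimate the spread from. Over all genes these fits called 1 to 2019, 1 to 8232, 2190 to 2776, 1476 to 2054, 2878 to 3500, 1329 to 2238, 4 to 19 and 445 to 836 genes in the same order.

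DESeq2 called 1 member at 6 h (0.711% of all genes) and 9 at 24 h (8.16%), and the fit of all 12 libraries 8 at 24 h (7.28%). For the change in response at 24 h against 6 h, 5 members were called with no filter on low counts, 1 with thinned counts and 4 at an adjusted *p* under 0.05. Over all genes these settings called 1664 of 28650, 843 of 19868 and 1968 of 21241 genes tested, in the same order. In all other alternatives apart from leaving out libraries, the counts of members stayed within 1.5 times of those reported, and no member called in the reported fits changed direction in any alternative. Of members called only in alternatives, *HSP90.2* and *HSP90.3* at 6 h were lower without mock replicate A and higher without mock replicate B. The cause of these differences was not tested.

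Over all genes, dexamethasone at 1 h gave 0 calls as reported, 7 with no filter, 24 with all 12 libraries, 53 with DESeq2 and 1 at an adjusted *p* under 0.05. At 6 h it gave 1 as reported, 2 with no filter, 24 with all 12 libraries and 189 with DESeq2, and at 24 h 2995 as reported and 1546 with all 12 libraries. Mock at 6 h against 1 h gave 3102 as reported, 1504 with only the 4 libraries compared and 5395 at an adjusted *p* under 0.05. At that threshold mock at 24 h gave 8084 against 1 h (5197 as reported) and 5921 against 6 h (3247 as reported). The change in response gave 13 at 6 h against 1 h as reported, with 76, 51 and 24 under no filter, DESeq2 and the threshold of 0.05, and 941 at 24 h against 6 h, with 1664, 1648 and 1968.

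The letters A and B may not pair the libraries, since the difference of A and B correlated between treatments at 0.51 at 1 h but at -0.045 at 6 h and 0.020 at 24 h. With the replicate block, 0, 0 and 15 members were called for dexamethasone at 1, 6, and 24 h, 19, 14 and 17 between mock times, and 0 and 2 for the change in response. Over all genes the replicate block gave 413 calls at 1 h, 84 at 6 h and 3447 at 24 h. Between mock times it gave 3412, 5469 and 3467 in the same order, and 12 and 1031 for the change in response. The lower depth at 24 h limits genes with few reads, such as *HSFA7B*, *HSP15.7* and *HSFA3*.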
